A study of Mus musculus with 50 samples.

Results

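Genes of B cells and plasma cells were followed through mouse spleen after injection of CpG oligodeoxynucleotides. The 32 were picked by symbol for their known place in the B lineage, and 30 had values, read from 43 probes, among 15312 named genes with values. They comprise a surface group of 10 genes listed for naive B cells and 6 transcription factors. The others are 11 measured genes of the B cell antigen receptor and its signalling, and 3 measured genes of plasma cells. The name of the surface group is a label of the list: Fcrla and Vpreb3 in it are not surface molecules. Lyn, a kinase of the receptor, and Xbp1, a transcription factor of secretory cells, are not analysed here.

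Spleen RNA from female mice was labelled with Cy5 and hybridised on 50 dual-colour arrays against a common Cy3-labelled mouse reference pool, which per the labels includes B lymphocyte RNA. Each value is a log2 ratio of spleen over reference, centred on the median of its array. In BALB/c wild-type mice there were 6 untreated arrays, 4 arrays at each of 6 times after an intraperitoneal injection of 400 µg of CpG ODN (0.5 and 1 h, 3 and 9 h, 24 and 72 h), and 4 arrays 3 h after 400 µg of control ODN. In C57BL/6 mice, controls and mice with a knockout of TNF (TNF-KO) were each taken untreated (4 arrays) and 3 h after CpG ODN (4 arrays). No dose is stated in the labels used here for the C57BL/6 mice, and ages and the construction of the knockout are not given there either. The series text speaks of 4 independent experiments per time point but does not say that arrays were separate animals, so the spread behind each p-value is that between arrays and may be technical.

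B cells sense antigen through a receptor made of membrane immunoglobulin (Ighm, Ighd) held by the signalling chains Cd79a and Cd79b, and pass the signal on through the kinases Syk, Blk and Btk and the adaptor Blnk. Their identity is kept by transcription factors such as Pax5 and Ebf1, while Bach2 and Bcl6 hold off the plasma cell programme, which Prdm1 (Blimp-1) sets going. Unmethylated CG dinucleotides in DNA are the ligand of Toll-like receptor TLR9, which B cells express in an endosomal compartment.

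The sequences given to the mice are shown because all comparisons rest on them, with every CG dinucleotide in capitals, written 5′ to 3′. The CpG mixture held ODN 1555 and ODN 1466, and the control mixture held ODN 1612 and ODN 1471.
ODN 1555: gctagaCGttagCGt
ODN 1466: tcaaCGttga
ODN 1612: gctagatgttagCGt
ODN 1471: tcaagcttga
Counted from 1 at the 5′ end, ODN 1612 differs from ODN 1555 by C7T, and ODN 1471 differs from ODN 1466 by C5G and G6C. ODN 1612 still holds 1 CG dinucleotide and ODN 1471 holds 0, so the control mixture was reduced in CG content rather than free of it.

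The 250 bases before the transcription start are printed for 3 members that passed a test below and whose promoter holds a match to 1 of 2 motifs: Bcl6, Cd79a and Tnfrsf17. They are examples chosen for the match, and Fcrl1 and Ebf1, which also passed a test and hold a match, are not printed. Cd79a passed only against control ODN. The promoters of Prdm1 and of the second listed start of Bcl6, not printed, held 0 matches to the motifs searched. The printed sequences come from RefSeq (build GRCm38.p6), each on the strand of its gene, and the capitals mark a match to a motif searched on both strands. For Bcl6 (chr16:23988853-23989102, minus strand, its first listed start) and Cd79a (chr7:24897247-24897496, plus strand) the match is to a loose NF-kB pattern, GGG and TTCC with any 3 bases between them. For Tnfrsf17 (chr16:11313559-11313808, plus strand) it is to an interferon-stimulated response element pattern, TTTC and again TTTC with any 2 bases between them.
Bcl6: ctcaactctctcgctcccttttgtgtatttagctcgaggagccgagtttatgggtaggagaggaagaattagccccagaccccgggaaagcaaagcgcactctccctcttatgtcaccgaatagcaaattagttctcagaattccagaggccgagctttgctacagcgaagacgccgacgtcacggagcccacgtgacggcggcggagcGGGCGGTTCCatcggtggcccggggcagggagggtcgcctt
Cd79a: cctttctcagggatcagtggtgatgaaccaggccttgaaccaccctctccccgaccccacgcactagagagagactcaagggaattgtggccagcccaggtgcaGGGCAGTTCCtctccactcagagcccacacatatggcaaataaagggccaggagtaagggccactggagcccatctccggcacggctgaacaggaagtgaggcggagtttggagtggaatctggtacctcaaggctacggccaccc
Tnfrsf17: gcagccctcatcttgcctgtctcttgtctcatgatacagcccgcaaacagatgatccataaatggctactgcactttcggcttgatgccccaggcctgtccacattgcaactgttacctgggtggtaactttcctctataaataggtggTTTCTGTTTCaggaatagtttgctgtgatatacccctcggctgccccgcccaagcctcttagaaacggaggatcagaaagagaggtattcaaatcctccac
Promoters were listed for 24 of the 30 measured members, 29 promoters in all. The NF-kB pattern, less strict than the published site, was in 3 of the 29 (10.3%; Bcl6, Cd79a and Fcrl1) and in 4.65% of all 32851 promoters of this length. The interferon pattern was in 3 (10.3%; Ebf1, Fcrla and Tnfrsf17) against 2.98% of all, and the B cell octamer ATTTGCAT was in 2 (6.9%; Blnk and Vpreb3) against 1.6%. An EBF1 pattern, CCCNNGGG, was in 4 (13.8%; Bank1, Cd22, Sdc1 and Spib) against 11.8%. A match describes the letters in this window and does not show that a factor binds there.

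The markers of B cells were present in the tissue. Cd79a, which marks B cells, stood above the reference on all 50 arrays (4.82 to 7.56), as did Ighm, the heavy chain of IgM, on the 49 arrays that measured it (5.01 to 7.94). Sdc1, the plasma cell surface proteoglycan CD138, stood below the reference on all 50 arrays (-1.71 to -0.44), so the plasma cell genes are named here by symbol and not taken as a measure of plasma cells. In whole spleen, fewer cells of a type and less RNA per cell cannot be told apart.

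Checks of the arrays are given once here. Tnf, the knocked-out gene, lay between -0.61 and 0.43 on the 8 TNF-KO arrays, between 0.58 and 0.78 on the 4 untreated control arrays and between 3.16 and 4.59 on the 4 control arrays titled CpG. A second label of all 8 C57BL/6 CpG arrays reads untreated; the titles were followed, and Cd14, a monocyte gene, was higher by 2.93 (SE 0.34) in the TNF-KO arrays titled CpG than in those titled untreated. The mean level of 9 pancreas markers, used as a covariate in an alternative fit, ran from 0.142 to 6.411 over the arrays. Within the untreated C57BL/6 control group alone it ran from 0.288 to 5.944. Array numbers in the titles form 11 runs of adjacent numbers, called array runs here, whose nature is not stated. The BALB/c 72 h and control ODN arrays share no array run with the untreated or CpG 3 h arrays, and the strains share none with each other, so the run cannot be told apart from the group in those comparisons. The 9 h and 24 h arrays share no run with the untreated arrays either, and a fit with the run as a fixed term links them to untreated only through 3 h arrays.

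Of the 30 measured members, 21 changed in at least 1 of 15 comparisons by limma's test with Benjamini-Hochberg adjustment over all genes (adjusted p under 0.05, the threshold throughout), and 9 in none. That is 70.0% of the members, beside 44.3% of the 14903 genes tested in all 15 comparisons. In BALB/c the calls at 1 h were all upward and those at 3, 24 and 72 h after CpG ODN all downward. The CpG comparisons in BALB/c share the same 6 untreated arrays, and the CpG 3 h arrays also enter the comparison with control ODN, so these comparisons are given side by side and not as support for each other.

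**Figure D1:**
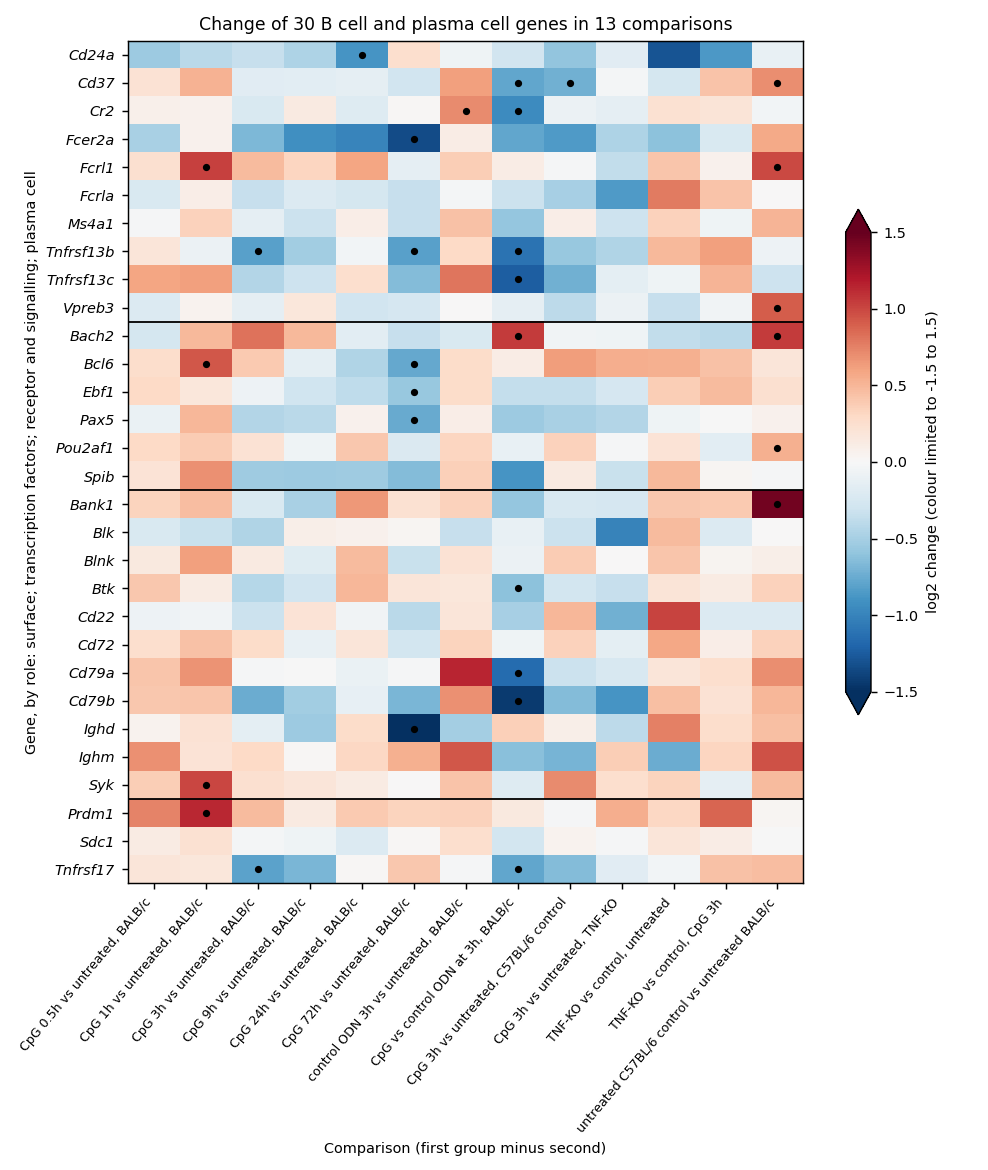
Log2 change of the 30 measured genes (vertical axis, grouped by role) in 13 comparisons of groups (horizontal axis, first group minus second); colour runs from blue (lower) to red (higher), limited to -1.5 to 1.5, and dots mark adjusted p under 0.05. The dots at 1 h are on higher values, those at 72 h on lower values, and 8 of the 9 in the comparison of CpG with control ODN on lower values.

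At 0.5 h after CpG ODN, 0 of 30 members passed the test, against 0.256% of all genes, and 2 had an unadjusted p under 0.05, beside 9.76% of all genes. The members' median change was 0.19, with 21 of 30 positive, beside 0.07 over all genes, of which 60.4% were positive. Prdm1, the driver of plasma cell differentiation, had values of 0.91, 0.48, 0.19 and 0.64 on the 4 arrays, all above its untreated range of -0.31 to -0.10. Its change of 0.74 passed only when arrays were weighted by their quality (adjusted p = 0.0478). On a second Prdm1 probe the 0.5 h values were -0.25, -0.01, -0.41 and -0.26. These lay inside the untreated range of that probe, -1.37 to 0.04, and its change was 0.35.

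At 1 h 4 of 30 members rose, 13.3% of the list, beside 3.3% of all genes called in either direction and 3.01% called higher, and 0 fell. The median change was 0.36 with 26 of 30 members positive, beside 0.05 and 57.4% over all genes. The 4 belong to 4 different roles: Prdm1 of plasma cells, the transcription factor Bcl6, the kinase Syk and the surface receptor Fcrl1. All 6 transcription factors had positive changes, with a median of 0.49.

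Prdm1 was at 0.32, 1.18, 1.16 and 1.14 on the 4 arrays at 1 h and at -0.31, -0.15 and -0.10 (lowest, median, highest) on the 6 untreated arrays. The groups did not overlap, and replicate 1 stood below the other 3 treated arrays. Prdm1 was thus higher by 1.13 on the log2 scale (SE 0.22; 2.19-fold; means 0.95 ± 0.42 SD, n = 4, and -0.19 ± 0.09 SD, n = 6; adjusted p = 0.00136). A second Prdm1 probe read 1.14, 1.19, 0.53 and 0.93 at 1 h against -1.37 to 0.04 untreated, and its change was 1.52 (SE 0.21; adjusted p over all probes = 1.7e-05). On that probe the rise also passed at 3 h, by 0.97 (SE 0.21; adjusted p = 0.00209), with arrays at 0.36, 0.55, 0.38 and 0.28. The probe that stands for the gene had 3 h values of -0.04, 0.25, 0.92 and 0.06, and did not pass.

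Bcl6, a repressor of Prdm1 and of the plasma cell programme, was at 1.89, 2.40, 1.07 and 0.91 at 1 h and at 0.34, 0.53 and 1.05 (lowest, median, highest) untreated. Replicates 1 and 2 were high, and replicates 3 and 4 lay at the upper end of the untreated values, which they overlapped. The rise was 0.93 (SE 0.24; 1.90-fold; adjusted p = 0.0231). Bcl6 and Prdm1, which act against each other in B cells, both had higher levels at this time.

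Syk, the kinase that relays the receptor signal, was at 4.79, 5.43, 4.39 and 4.03 against 3.25, 3.72 and 3.91 (lowest, median, highest) untreated, without overlap. Its rise was 1.00 (SE 0.24; 1.99-fold; adjusted p = 0.0107). Fcrl1, an Fc receptor-like surface protein of B cells, was at 4.09, 4.05, 2.60 and 2.60 against 1.97, 2.42 and 2.49 untreated. The groups did not overlap, but the 4 treated arrays fell into 2 high and 2 lower ones. The rise was 1.02 (SE 0.26; 2.02-fold; adjusted p = 0.019), and its 2 other probes gave 0.46 (adjusted p = 0.228) and 1.06 (adjusted p = 0.0479) with every probe tested.

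The high and low arrays at 1 h followed the array runs. Replicates 1 and 2 share the first run with 5 of the 6 untreated arrays. There 28 of 30 members were positive, with a median of 0.77 beside 0.06 over all genes. In that run 13 members were called, but the share of all genes called there was not counted, so the 13 cannot be set against it. Replicates 3 and 4 share the second run with the other untreated array, and there 16 of 30 were positive, with a median of 0.04; the second run alone was not tested. Prdm1 was higher in both runs, by 0.91 and 1.46. Bcl6 was higher by 1.46 and 0.60, Syk by 1.47 and 0.45, and Fcrl1 by 1.79 and 0.11. Cd79b, which did not pass at 1 h, was higher by 1.10 in the first run and lower, at -0.39, in the second.

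**Figure D2:**
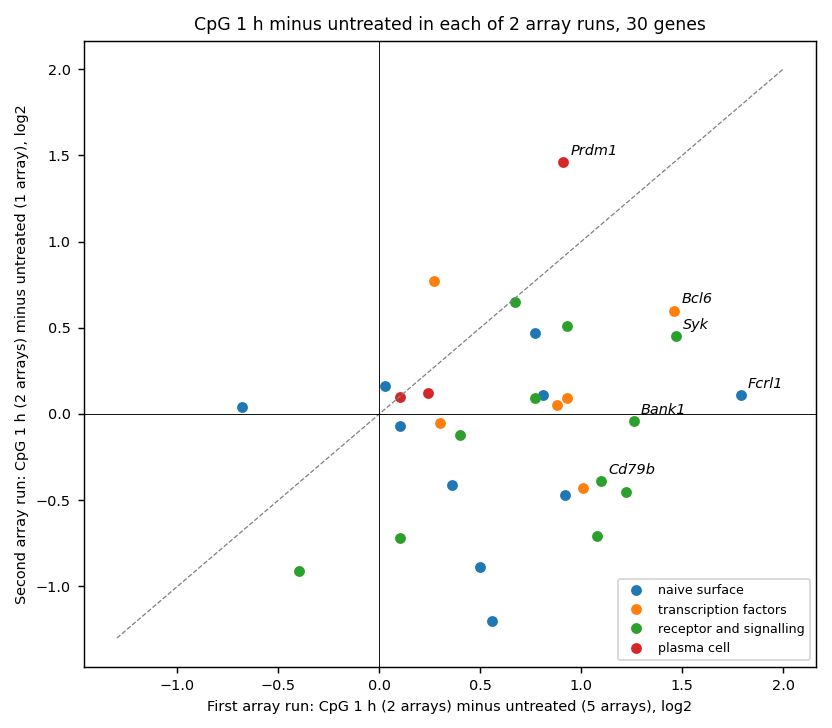
Change from untreated to 1 h after CpG ODN within the first array run (horizontal axis, log2) and within the second (vertical axis, log2) for 30 genes, coloured by role; the dashed line marks equal change. Prdm1 lies at 0.91 and 1.46, whereas Fcrl1 lies at 1.79 in the first run and 0.11 in the second.

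The 2 first-run arrays at 1 h also had the widest spread of log2 ratios of that group, with median absolute deviations of 0.587 and 0.544 beside 0.488 and 0.46 for the others and 0.414 to 0.462 untreated. With all arrays brought to 1 common spread, Prdm1 was the only member that passed. Leaving out replicate 2 ended the calls of Bcl6, Syk and Fcrl1 (adjusted p = 0.233, 0.136 and 0.184), and leaving out replicate 1 ended those of Bcl6 and Fcrl1 (adjusted p = 0.122 and 0.173). The call of Bcl6 was also lost without untreated replicate 2 or 6 (adjusted p = 0.0505 and 0.0632), while that of Prdm1 held without each of the 10 arrays (adjusted p up to 0.0128). Of 12 neutrophil markers, 7 were higher at 1 h. The mean level of the 9 measured on every array ran from 3.586 to 4.334 against 2.0 to 3.055 untreated. All mean levels of marker lists given below are likewise over markers measured on every array. These are 10 of 13 T cell, 7 of 11 monocyte and macrophage, and 9 of 10 erythroid markers. The monocyte and macrophage mean ran from 1.821 to 2.068 at 1 h against 0.94 to 1.526 untreated, without overlap. Means of T cell markers (1.442 to 2.042 against 1.093 to 1.555) and erythroid markers (3.477 to 4.321 against 3.474 to 3.976) overlapped. The part of neutrophils and these other cells in the members' changes was not tested.

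At 3 h 2 of 30 members fell, both of the TNF receptor superfamily and binding the survival factors BAFF and APRIL, and 0 rose. That is 6.67% of the list, beside 9.96% of all genes called in either direction and 3.14% called lower. The members' median change was -0.16 with 21 of 30 negative, beside -0.03 over all genes, of which 45.5% were positive. In the surface group 9 of 10 changes were negative, with a median of -0.29.

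Tnfrsf17 (BCMA), the receptor that keeps plasma cells alive, was at 0.16, -0.25, 0.45 and 0.00 at 3 h against 0.49, 0.95 and 1.32 (lowest, median, highest) untreated. All 4 treated arrays lay below all 6 untreated ones. Its fall was -0.80 (SE 0.23; 1.75-fold; means 0.09 ± 0.29 SD, n = 4, and 0.89 ± 0.34 SD, n = 6; adjusted p = 0.0187). At 9 h it was at 0.10, -0.05, 0.45 and 0.32, still below every untreated array, with a change of -0.69 that missed the threshold (adjusted p = 0.0673). At 24 h its values of 0.94, 1.08, 0.96 and 0.66 and at 72 h of 1.79, 1.53, 0.78 and 1.07 were back within or above the untreated range.

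Tnfrsf13b (TACI), a receptor of mature B cells for the same ligands, was at 1.03, 1.85, 1.99 and 1.49 at 3 h against 2.13, 2.44 and 2.56 (lowest, median, highest) untreated, without overlap. Its fall was -0.81 (SE 0.24; 1.75-fold; adjusted p = 0.0217). A second probe gave -0.45 (adjusted p = 0.196 with every probe tested). Within the second array run, with 2 treated arrays and 1 untreated, the difference was -0.39 for Tnfrsf13b and -0.84 for Tnfrsf17.

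Cd79b, the second signalling chain of the receptor, was at 2.73, 2.24, 2.82 and 3.12 at 3 h, below every untreated array (3.32 to 3.66), with a change of -0.75 that did not pass (adjusted p = 0.0987). Its other probe was at 2.82, 2.38, 3.18 and 3.22 against 3.66 to 4.14 untreated. On that probe the fall was -1.04 (SE 0.24; adjusted p = 0.00353 with every probe tested). Cd79a, its partner, had 3 h values of 6.15, 5.45, 5.65 and 5.21, inside the untreated range of 4.93 to 6.35. Bach2, which holds back plasma cell differentiation, was at 0.71, 0.62, 0.99 and 1.74 against -0.32 to 0.69 untreated, a change of 0.82 that missed the threshold (adjusted p = 0.0539).

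The call of Tnfrsf17 at 3 h was lost without 3 h replicate 2 or 4 or untreated replicate 5 (adjusted p = 0.0939, 0.0581 and 0.0531), and that of Tnfrsf13b without 3 h replicate 1 or 4 (0.148 and 0.0667). With the array run as a fixed term Tnfrsf17 was at -0.84 (adjusted p = 0.273) and Tnfrsf13b at -0.31 (adjusted p = 0.786). Of 12 neutrophil markers 5 were higher at 3 h, with a mean level of 3.125 to 3.468 against 2.0 to 3.055 untreated, and 2 of 11 monocyte and macrophage markers were higher. Their part in the members' changes was not tested.

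**Figure D3:**
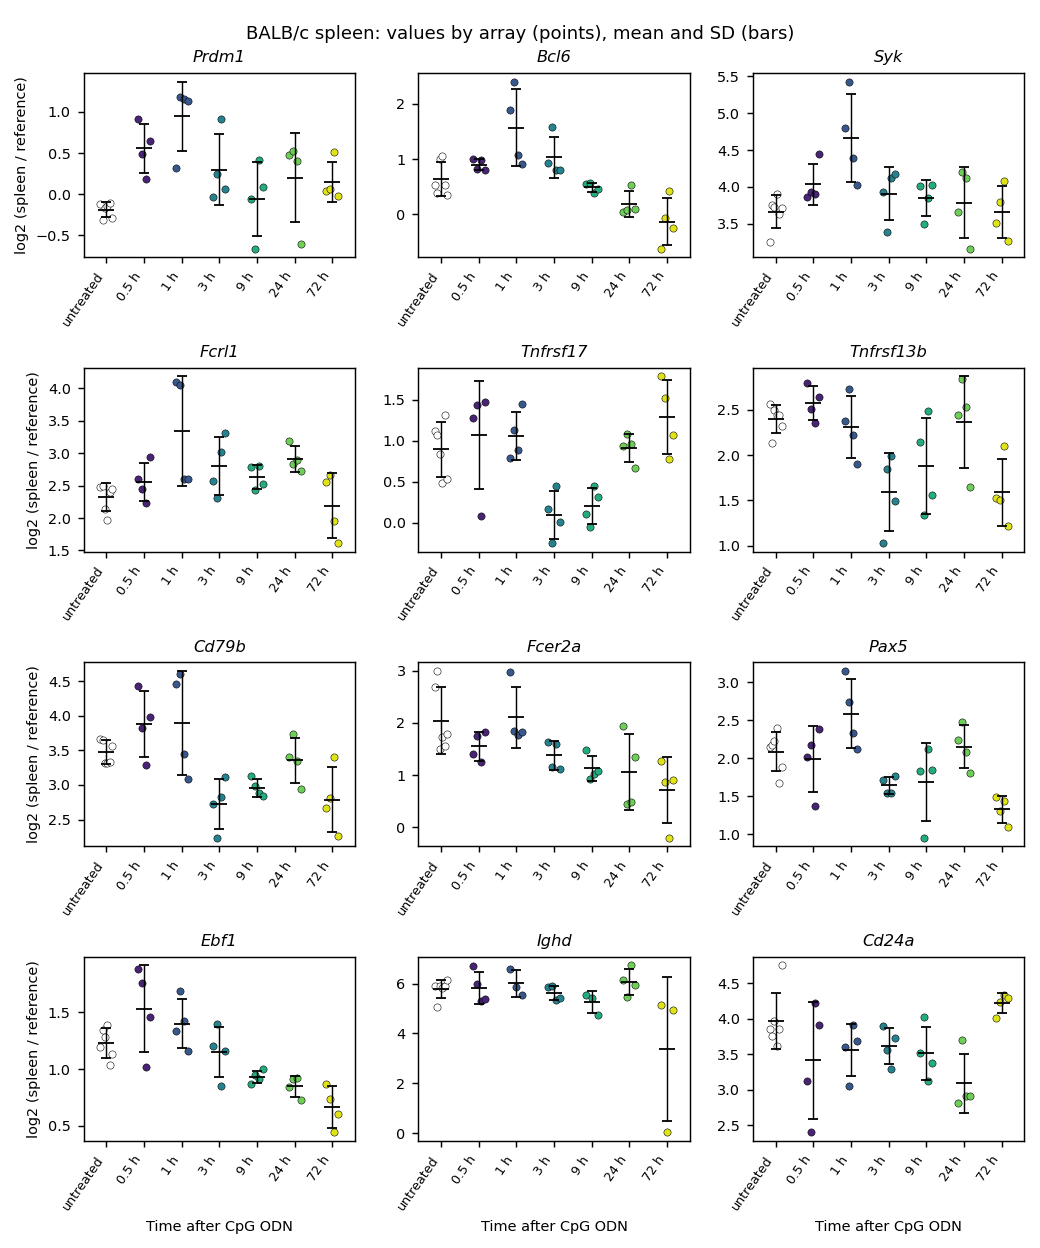
Values of 12 members in BALB/c spleen, untreated (6 arrays) and at 6 times after CpG ODN (4 arrays each; Ighd has fewer at some times): log2 ratio of spleen over reference on the vertical axis, a point for each array, bars for mean and SD. Prdm1, Bcl6, Syk and Fcrl1 stand highest at 1 h, Tnfrsf17 is low at 3 and 9 h, and Pax5, Ebf1, Fcer2a and Bcl6 are lowest at 72 h.

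At 9 h 0 of 30 members passed, against 6.96% of all genes, and 3 had an unadjusted p under 0.05, beside 17.6% of all genes. The median change was -0.17 with 21 of 30 negative, beside -0.02 over all genes. Fcer2a, the low-affinity IgE receptor CD23, was at 1.48, 0.92, 1.02 and 1.08, just below the untreated range of 1.49 to 3.00. Its change of -0.92 did not pass (adjusted p = 0.0835). Of 13 T cell markers, 4 were lower at this time.

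At 24 h 1 member fell, 3.33% of the list, beside 8.44% of all genes called in either direction and 1.62% called lower, and 0 rose. Positive and negative changes were equally frequent, 15 of each, with a median of -0.01. The member was Cd24a, the heat-stable antigen of immature B cells, which erythroid cells also carry. It was at 2.82, 3.71, 2.91 and 2.92 against 3.62, 3.86 and 4.75 (lowest, median, highest) untreated, and 1 array of the 4 overlapped the untreated values. Its fall was -0.88 (SE 0.28; 1.84-fold; adjusted p = 0.0445), and at 72 h it was at 4.01, 4.24, 4.34 and 4.29. The 24 h arrays share no array run with the untreated arrays, and with the run as a fixed term the change was -1.12 (adjusted p = 0.436).

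Erythroid markers moved beside Cd24a. At 24 h 3 of 10 were lower (Slc25a37, Slc4a1 and Tfrc), and their mean level ran from 2.564 to 3.419 against 3.474 to 3.976 untreated. At 72 h 2 were higher (Gata1 and Epor) and the mean ran from 3.57 to 4.798. Their part in the change of Cd24a was not tested. The call was lost without any of 8 of the 10 arrays: 24 h replicates 1, 3 and 4 (adjusted p = 0.121, 0.149 and 0.0702) and untreated replicates 1, 2, 3, 5 and 6 (0.0552, 0.0544, 0.0627, 0.0583 and 0.118).

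At 72 h 6 of 30 members fell and 0 rose, 20.0% of the list, beside 10.6% of all genes called in either direction and 4.15% called lower. They were the transcription factors Pax5, Ebf1 and Bcl6, the surface molecules Fcer2a and Tnfrsf13b, and the heavy chain gene Ighd. The median change was -0.28 with 21 of 30 negative, beside 0.03 over all genes, of which 52.6% were positive. All 6 transcription factors were negative (median -0.61). The 3 plasma cell genes were positive (median 0.33), none of these 3 past the threshold. Among them Sdc1 changed by only 0.02, and by -0.18 on its other probe.

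Pax5, which keeps B cell identity, was at 1.49, 1.30, 1.44 and 1.10 at 72 h against 1.68, 2.17 and 2.40 (lowest, median, highest) untreated. All 4 treated arrays lay below all 6 untreated ones. The fall was -0.76 (SE 0.20; 1.69-fold; means 1.33 ± 0.18 SD, n = 4, and 2.09 ± 0.26 SD, n = 6; adjusted p = 0.0173). Ebf1, which acts with Pax5 in committing cells to the B lineage, was at 0.87, 0.74, 0.44 and 0.61 against 1.04, 1.24 and 1.39 untreated, again without overlap. Its fall was -0.57 (SE 0.15; 1.48-fold; adjusted p = 0.0182). Its 9 h values of 0.87, 0.95, 0.91 and 1.00 were also below every untreated array. So were its 24 h values of 0.84, 0.91, 0.92 and 0.72. The other Ebf1 probe gave 0.04 at 9 h and -0.20 at 24 h. At 72 h, where it was measured on 2 of the 4 arrays, it gave -0.60 (adjusted p = 0.187 with every probe tested).

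Bcl6, high at 1 h, was at -0.62, -0.07, 0.42 and -0.25 at 72 h, a fall of -0.77 (SE 0.24; 1.70-fold; adjusted p = 0.0381), with 1 array inside the untreated values. In between it was at 0.54, 0.56, 0.39 and 0.47 at 9 h and at 0.04, 0.08, 0.54 and 0.09 at 24 h. Its group means stood above the untreated mean of 0.64 at 0.5, 1 and 3 h and below it at 9, 24 and 72 h.

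Fcer2a had its lowest values at 72 h, with 1.27, 0.86, -0.20 and 0.91 against 1.49, 1.76 and 3.00 (lowest, median, highest) untreated, without overlap. Its fall was -1.34 (SE 0.32; 2.52-fold; adjusted p = 0.00777). A second probe was at 2.51, 2.64, 2.48 and 1.97 against 2.26 to 3.00 untreated, a change of -0.33 that did not pass (adjusted p = 0.393 with every probe tested). Tnfrsf13b was at 1.53, 1.51, 2.10 and 1.21, below all untreated arrays, a fall of -0.81 (SE 0.24; 1.75-fold; adjusted p = 0.0262), while its other probe gave -0.12.

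Ighd, the heavy chain of IgD on naive B cells, was measured on 3 of the 4 arrays at 72 h, at 5.14, 0.03 and 4.93 for replicates 2, 3 and 4, against 5.06, 5.90 and 6.13 (lowest, median, highest) untreated. The fall of -2.42 (SE 0.62; 5.35-fold; adjusted p = 0.0129) rests on replicate 3: without it the adjusted p was 0.209. Cd79b fell on its other probe at 72 h, by -1.19 (SE 0.24; adjusted p = 0.0022 with every probe tested), with arrays at 2.85, 2.86, 2.35 and 2.95. The Cd79b probe that stands for the gene gave -0.69 and did not pass (adjusted p = 0.107).

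Without 72 h replicate 3, Fcer2a and Ebf1 lost their calls (adjusted p = 0.0673 and 0.0863), and without replicate 2 Pax5 did (0.052). Tnfrsf13b lost it without 72 h replicate 1, 2 or 4 (0.065, 0.0785 and 0.0643), and Bcl6 without 72 h replicate 1, 2 or 4 (0.151, 0.0841 and 0.0597) or untreated replicate 3, 4 or 5 (0.0773, 0.0832 and 0.0548). Markers of other cells moved at the same time. Of 13 T cell markers 5 were lower (Cd28, Cd3e, Cd6, Thy1 and Cd3g), with a mean level of 0.83 to 1.047 against 1.093 to 1.555 untreated, and 5 of 11 monocyte and macrophage markers were higher, with a mean of 1.441 to 1.777 against 0.94 to 1.526. Their part in the members' changes was not tested.

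Control ODN, with fewer CG dinucleotides, was compared with no treatment at 3 h. Of 30 members 1 rose, 3.33% of the list, beside 1.42% of all genes called in either direction and 1.05% called higher, and 0 fell. The median change was 0.29 with 24 of 30 positive, beside 0.09 over all genes, of which 61.0% were positive. Cr2 (CD21), the complement receptor of follicular and marginal zone B cells, was at 5.36, 5.65, 5.17 and 4.70 against 4.19, 4.51 and 4.87 (lowest, median, highest) untreated, with 1 array inside the untreated values. The rise was 0.71 (SE 0.19; 1.64-fold; adjusted p = 0.049), and its other probe gave -0.10 (adjusted p = 0.89 with every probe tested). Cd79a had 3 of 4 arrays above the untreated range (7.20, 7.56, 6.78 and 5.56), a change of 1.14 that missed the threshold (adjusted p = 0.0653).

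The call of Cr2 was lost without control ODN replicate 1, 2 or 3 (adjusted p = 0.21, 0.129 and 0.179) or untreated replicate 1, 2, 5 or 6 (0.0583, 0.0887, 0.101 and 0.114), and without control ODN replicate 4 the number of members called was 5. With arrays scaled to the same spread the change was 0.10 (adjusted p = 0.879), and with the mean of both probes 0.31 (adjusted p = 0.348). It stayed at 0.71 but missed the threshold with the array run as a random block (adjusted p = 0.0518) and with a covariate for pancreas markers (adjusted p = 0.0526). Mean marker levels after control ODN were 1.463 to 2.242 against 0.94 to 1.526 untreated for monocytes and macrophages. They were 3.77 to 4.608 against 3.474 to 3.976 for erythroid cells and 2.614 to 4.064 against 2.0 to 3.055 for neutrophils. For T cells they were 1.059 to 1.753 against 1.093 to 1.555. The part of these cells in the members' changes after control ODN was not tested.

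CpG ODN and control ODN were also compared directly at 3 h. Of 30 members 8 were lower and 1 higher after CpG ODN, 30.0% of the list, beside 18.3% of all genes called in either direction, 10.9% called lower and 7.4% called higher. The median difference was -0.43 with 25 of 30 negative, beside -0.08 over all genes, of which 42.5% were positive. The 8 were 3 genes of the receptor pathway (Cd79a, Cd79b and Btk), the 3 receptors for BAFF or APRIL (Tnfrsf13b, Tnfrsf13c and Tnfrsf17), Cr2, and Cd37, a tetraspanin of mature B cells. For all 8 the mean after CpG ODN stood below the untreated mean, though hardly so for Cd79a (5.62 against 5.64). For 7, all but Tnfrsf17, the mean after control ODN stood above the untreated mean.

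Cd79b was at 2.73, 2.24, 2.82 and 3.12 after CpG ODN and at 4.60, 3.66, 4.99 and 3.37 after control ODN, without overlap. The difference was -1.43 (SE 0.31; 2.70-fold; means 2.73 ± 0.37 SD and 4.16 ± 0.76 SD, n = 4 each; adjusted p = 0.00135). Its other probe read 4.37, 4.16, 2.89 and 3.52 after control ODN and differed by -0.83 (SE 0.26; adjusted p = 0.0304 with every probe tested). Cd79a was at 6.15, 5.45, 5.65 and 5.21 against 7.20, 7.56, 6.78 and 5.56, with overlap through control ODN replicate 4, and differed by -1.16 (SE 0.36; 2.23-fold; adjusted p = 0.0244). Btk, the kinase downstream of Syk, was at 2.54, 2.26, 2.76 and 2.27 against 3.55, 3.00, 2.89 and 2.82, without overlap, and differed by -0.61 (SE 0.21; 1.52-fold; adjusted p = 0.0438).

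Among the survival receptors, Tnfrsf13c, the BAFF receptor of naive B cells, was at 3.93, 4.02, 3.80 and 4.21 against 5.27, 4.96, 5.92 and 4.76. The groups did not overlap, and it differed by -1.24 (SE 0.37; 2.36-fold; adjusted p = 0.0173). Tnfrsf13b was at 1.03, 1.85, 1.99 and 1.49 against 2.94, 2.39, 3.24 and 2.22 and differed by -1.11 (SE 0.26; 2.16-fold; adjusted p = 0.00291), while its other probe gave -0.15. Tnfrsf17 was at 0.16, -0.25, 0.45 and 0.00 against 1.18, 0.66, 1.14 and 0.51 and differed by -0.78 (SE 0.25; 1.72-fold; adjusted p = 0.0295). For Tnfrsf17 the control ODN arrays lay inside the range of the untreated arrays, whereas for Tnfrsf13c 3 of the 4 lay above it.

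Cr2 was at 4.28, 4.68, 4.07 and 4.08 against 5.36, 5.65, 5.17 and 4.70 and differed by -0.94 (SE 0.21; 1.92-fold; adjusted p = 0.0016), with -0.67 on its other probe (adjusted p = 0.261 with every probe tested). Cd37 was at 1.23, 1.00, 1.10 and 1.07 against 2.16, 1.97, 1.78 and 1.62, without overlap, and differed by -0.78 (SE 0.21; 1.72-fold; adjusted p = 0.00972). Bach2 went the other way, at 0.71, 0.62, 0.99 and 1.74 against 0.14, 0.23, -0.46 and -0.07, and was higher after CpG ODN by 1.05 (SE 0.30; 2.07-fold; adjusted p = 0.0142). The second Prdm1 probe was also higher after CpG ODN, by 1.07 (SE 0.23; adjusted p = 0.00185 with every probe tested). The Prdm1 probe that stands for the gene differed by 0.15 and did not pass.

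**Figure D4:**
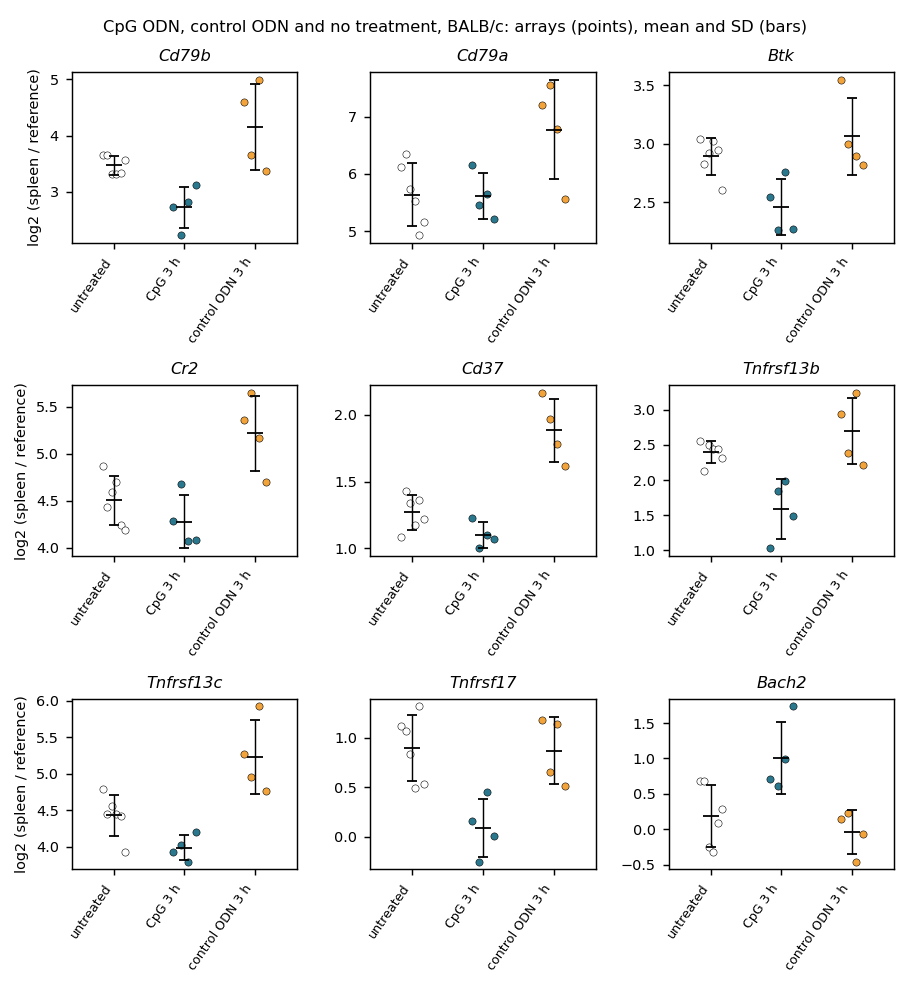
Values of the 9 members called between CpG ODN and control ODN at 3 h, with untreated arrays beside them: log2 ratio on the vertical axis, a point for each array (6 untreated, 4 CpG ODN, 4 control ODN), bars for mean and SD. Cd79b, Cd79a, Cr2, Cd37 and Tnfrsf13c stand highest after control ODN, Tnfrsf17 and Tnfrsf13b lowest after CpG ODN, and Bach2 highest after CpG ODN.

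The control ODN arrays had a wider spread of log2 ratios (median absolute deviation 0.462 to 0.563) than the CpG 3 h arrays (0.407 to 0.453). With all arrays brought to 1 common spread, 4 members passed (Bach2, Cd37, Cd79b and Tnfrsf13b). Under that scaling Cd79a differed by -0.17, Cr2 by -0.19, Btk by -0.18 and Tnfrsf13c by -0.50. Cd79b, Cr2, Cd37 and Tnfrsf13b kept their calls without each of the 8 arrays. Bach2 lost its call without CpG replicate 4 or control ODN replicate 3 (adjusted p = 0.0807 and 0.0661), and Tnfrsf13c without control ODN replicate 3 (0.0915). Cd79a lost it without CpG replicate 2 or 4 or control ODN replicate 1, 2 or 3 (0.0573, 0.0809, 0.0865, 0.104 and 0.0565), Tnfrsf17 without CpG replicate 2 or 4 or control ODN replicate 1 or 3 (0.0955, 0.0687, 0.0998 and 0.103), and Btk without any array but CpG replicate 3 and control ODN replicate 4 (0.0609 to 0.189). Without control ODN replicate 3 the number called was 4, without CpG replicate 4 it was 5.

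Markers of other cells differed between the same arrays. Of 10 erythroid markers 2 were lower after CpG ODN, Epor by -1.5 (SE 0.39; adjusted p = 0.00633) and Slc25a37 by -1.23 (SE 0.38; adjusted p = 0.0217), and their mean level ran from 3.198 to 4.172 against 3.77 to 4.608. Of 11 monocyte and macrophage markers 1 was higher and 4 lower, with a mean of 1.437 to 1.783 against 1.463 to 2.242. Of 13 T cell markers 2 were lower (1.135 to 1.307 against 1.059 to 1.753), and of 12 neutrophil markers 2 were higher and 1 lower (3.125 to 3.468 against 2.614 to 4.064). Their part in the members' differences was not tested.

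In C57BL/6 control mice 3 h after CpG ODN, 1 of 30 members fell, 3.33% of the list, beside 7.72% of all genes called in either direction and 2.74% called lower. The median change was -0.25 with 20 of 30 negative, beside -0.01 over all genes. Of the 10 genes of the surface group, 9 were negative (median -0.53) on the probes used. On other probes Cr2 (0.03), Tnfrsf13b (0.07), Fcrl1 (0.28 and 0.25) and Fcrla (0.14) were positive. A further Fcrla probe (-0.57) and the other Fcer2a probe (-0.23) were negative. Cd37 was at 1.63, 1.24, 1.31 and 0.84 after CpG ODN against 2.24, 1.86, 1.86 and 1.91 untreated, without overlap. The fall was -0.72 (SE 0.19; 1.64-fold; means 1.25 ± 0.33 SD and 1.97 ± 0.18 SD, n = 4 each; adjusted p = 0.029), and within the 3 array runs that hold both groups it was -0.67, -0.55 and -0.24. With the run as a fixed term Cd37 was at -0.55 (adjusted p = 0.14) and 3 other members passed, Blk, Fcer2a and Syk. With the run as a random block, and likewise with array weights, 3 passed: Cd37, Fcer2a and Syk. The call was lost without CpG replicate 2, 3 or 4 (adjusted p = 0.0677, 0.0606 and 0.0877) or untreated replicate 1 or 4 (0.093 and 0.0536). Of 12 neutrophil markers 6 were higher after CpG ODN, with a mean level of 4.012 to 4.821 against 2.856 to 3.395 untreated. Of 11 monocyte and macrophage markers 1 was higher and 3 were lower, and the part of these cells in the members' changes was not tested. The difference of this CpG response from that in BALB/c passed for 0 of 30 members, against 0.453% of all genes, with 1 at an unadjusted p under 0.05, beside 6.45% of all genes.

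In TNF-KO mice 0 of 30 members passed at 3 h after CpG ODN, against 3.77% of all genes, and 6 had an unadjusted p under 0.05, beside 14.0% of all genes. The median change was -0.21 with 25 of 30 negative, beside 0.03 over all genes, of which 54.0% were positive. All 10 genes of the surface group were negative. Cd79b on its other probe was at 3.16, 3.72, 4.00 and 3.31 after CpG ODN against 4.50, 4.98, 5.13 and 4.12 untreated, without overlap, a fall of -1.13 (SE 0.30; adjusted p = 0.047 with every probe tested). The probe that stands for the gene gave -0.88 (adjusted p = 0.111). Blk, a kinase of the Src family in B cells, had the change with the smallest p, -1.0 (SE 0.32; adjusted p = 0.109).

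Between TNF-KO and control mice no member passed: 0 of 30 untreated, beside 0.562% of all genes, and 0 of 30 after CpG ODN, beside 0.361%. The difference of the CpG responses passed for 0 of 30, beside 0.0268% of all genes. At an unadjusted p under 0.05 the counts were 9, 5 and 3, beside 11.3%, 12.6% and 7.93% of all genes. Untreated Cd24a was at 2.07, 2.34, 2.25 and 3.60 in TNF-KO mice against 4.35, 4.01, 3.54 and 3.53 in controls, a difference of -1.29 (SE 0.32; adjusted p = 0.0792), with replicate 4 of the knockout inside the control values. The erythroid markers were also highest on knockout replicate 4, with mean levels of 2.1, 1.782, 1.924 and 3.895 on the 4 knockout arrays against 3.615 to 4.674 in controls, and 2 of 10 were lower (Slc4a1 and Slc25a37). Cd24a passed with the array run as a fixed or a random block, with array weights and without knockout replicate 4, and no other member did in these fits. The part of erythroid cells in this difference was not tested.

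Untreated C57BL/6 control and BALB/c spleens differed more. Of 30 members 6 were higher in C57BL/6 and 0 lower, 20.0% of the list, beside 14.5% of all genes called in either direction and 8.47% called higher. The median difference was 0.35 with 23 of 30 positive, beside 0.04 over all genes, of which 54.1% were positive. No array run held both strains, so strain and run cannot be told apart.

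Bank1, a scaffold of B cell receptor signalling, was at 6.22, 6.60, 6.65 and 6.02 in C57BL/6 against 4.54, 4.90 and 5.38 (lowest, median, highest) in BALB/c, without overlap. It was higher by 1.45 (SE 0.35; 2.72-fold; means 6.37 ± 0.30 SD, n = 4, and 4.93 ± 0.36 SD, n = 6; adjusted p = 0.00327). The TNF-KO mice, also on C57BL/6, had untreated values of 7.02, 6.78, 7.48 and 5.83. Bach2 was at 1.01, 0.86, 1.76 and 1.33 against -0.32, 0.19 and 0.69, without overlap, and higher by 1.05 (SE 0.27; 2.07-fold; adjusted p = 0.00527).

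Vpreb3, a protein that binds immunoglobulin chains in B cell precursors, was at 1.30, 1.88, 1.03 and 2.06 against 0.31, 0.64 and 1.05, with 1 array inside the BALB/c values. It was higher by 0.91 (SE 0.22; 1.88-fold; adjusted p = 0.00318). Cd37 was at 2.24, 1.86, 1.86 and 1.91 against 1.08, 1.28 and 1.43, without overlap, and higher by 0.70 (SE 0.19; 1.63-fold; adjusted p = 0.00795). Pou2af1 (OBF-1), the B cell coactivator of octamer-binding factors, was at 1.60, 1.59, 2.17 and 1.92 against 0.93, 1.32 and 1.54, without overlap, and higher by 0.53 (SE 0.17; 1.45-fold; adjusted p = 0.0302).

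Fcrl1 was at 2.99, 2.74, 3.94 and 3.59 against 1.97, 2.42 and 2.49, without overlap, and higher by 0.99 (SE 0.27; 1.99-fold; adjusted p = 0.00858). Its 2 other probes did not show this: they gave 0.02 (adjusted p = 0.976) and -0.68 (adjusted p = 0.122) with every probe tested, so probes of the gene disagreed between the strains. The calls of Bank1, Bach2, Vpreb3 and Cd37 held without each of the 10 arrays. Fcrl1 lost its call without C57BL/6 replicate 3 (adjusted p = 0.0742), and Pou2af1 without C57BL/6 replicate 3 or 4 or BALB/c replicate 2 or 6 (0.159, 0.079, 0.0786 and 0.0574).

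**Figure D5:**
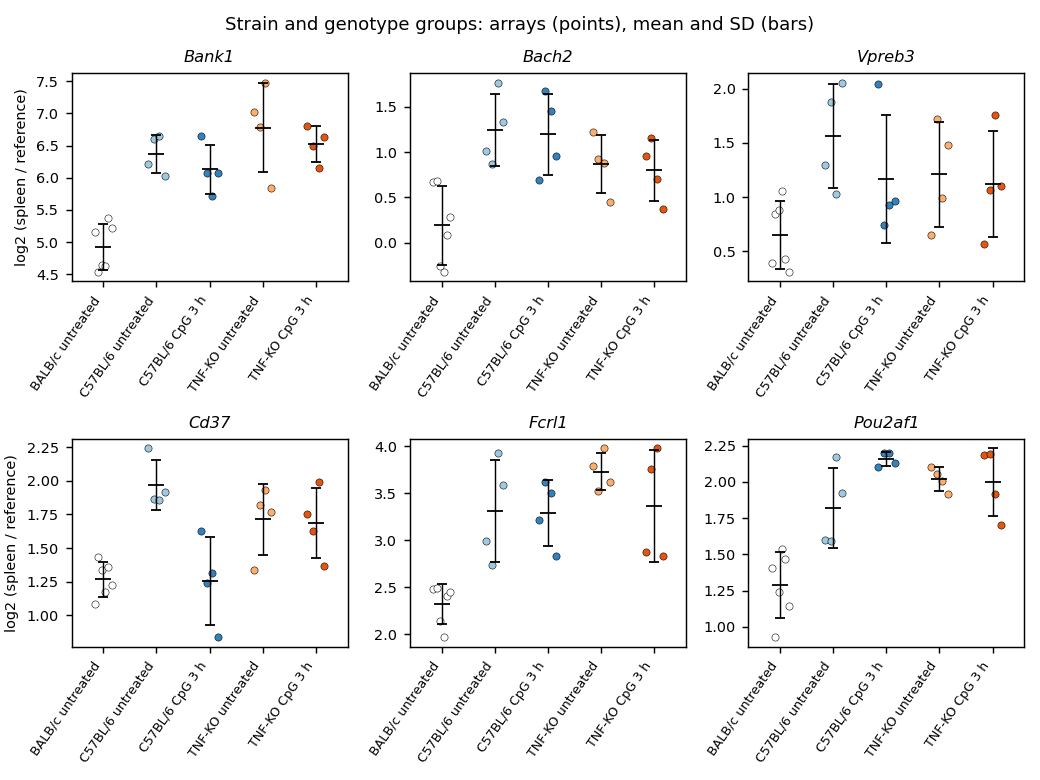
Values of the 6 members called between untreated C57BL/6 control and untreated BALB/c spleen, with the other C57BL/6 groups beside them: log2 ratio on the vertical axis, a point for each array (6 BALB/c, 4 in each other group), bars for mean and SD. For Bank1, Bach2, Cd37, Fcrl1 and Pou2af1 all 4 untreated C57BL/6 control arrays stand above all 6 untreated BALB/c arrays.

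The untreated C57BL/6 arrays had a wider spread of log2 ratios (0.495 to 0.523) than the untreated BALB/c arrays (0.414 to 0.462). With arrays scaled to the same spread 3 members passed: Bach2 and Vpreb3 higher, and Tnfrsf13c lower. Under that scaling Bank1 was at 0.62, Cd37 at 0.46, Fcrl1 at 0.59 and Pou2af1 at 0.30, none past the threshold. T cell markers moved as well: 7 of 13 were higher in C57BL/6, with a mean level of 1.943 to 2.167 against 1.093 to 1.555. Their part in the members' differences was not tested.

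The 9 members that passed in no comparison were Ms4a1 (CD20), Cd22, Cd72, Fcrla, Spib, Blk, Blnk, Ighm and Sdc1. Ms4a1, a surface protein of all mature B cells, had group means between 1.68 and 2.88 and changes between -0.58 and 0.51. Cd22, an inhibitory co-receptor, changed by between -0.72 and 1.01, and Cd72, another inhibitory receptor, by between -0.27 and 0.58. Spib, an Ets family transcription factor of B cells, ranged from -0.89 to 0.69. Blnk, the adaptor that links Syk to Btk, ranged from -0.33 to 0.61. Fcrla changed by between -0.85 and 0.78, and Blk by between -1.0 and 0.47. The 2 Blk probes had opposite signs in several comparisons, such as -0.23 and 0.71 at 0.5 h. In TNF-KO mice after CpG ODN they gave -1.0 and -0.85. They also differed in level: the probe that stands for the gene ran from -0.72 to 1.65 over the arrays. The other Blk probe ran from 1.37 to 5.82 on the 45 arrays that measured it. Ighm had group means between 5.98 and 6.95, and Sdc1 the narrowest range of changes of the 9, from -0.28 to 0.25.

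Other genes of the B cell were read from companion lists, described by counts. Of 16 measured activation genes 2 were higher at 0.5 h, 7 at 1 h and 11 at 3 h, with 0 lower at those times, beside 0.256%, 3.3% and 9.96% of all genes called in either direction. The list includes genes that other cells induce too. Egr1, an immediate early transcription factor, was higher by 2.33 (SE 0.29) at 0.5 h, Cd83, a maturation marker, by 3.72 (SE 0.43) at 1 h, and Cd69, an early activation antigen, by 3.11 (SE 0.29) at 3 h. Against control ODN 8 of the 16 were higher and 1 lower, beside 18.3% of all genes. In C57BL/6 control mice 9 were higher and 1 lower (all genes 7.72%), and in TNF-KO mice 5 were higher and 0 lower (all genes 3.77%).

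Of 15 other genes of B cell receptor signalling, 0 passed at 0.5 h and at 1 h, 3 passed at 3 h and at 72 h, and 6 against control ODN. Of all genes 9.96%, 10.6% and 18.3% passed in the last 3 of these comparisons. At 3 h 1 was higher, Pik3ap1 (BCAP), an adaptor for PI3 kinase, by 1.29 (SE 0.30; adjusted p = 0.0033). At the same time 2 were lower, the inhibitory adaptor Dok3 by -0.59 (SE 0.17; adjusted p = 0.0178) and the phosphatase Inpp5d (SHIP) by -0.65 (SE 0.20; adjusted p = 0.0305). At 72 h 3 were lower, Prkcb (-0.70), Malt1 (-0.59) and Dok3 (-0.55), and 0 higher. Against control ODN 5 were lower and 1, Pik3ap1, higher.

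Of 26 other B cell genes, 2 passed at 1 h, 6 at 3 h, 5 at 72 h, 10 against control ODN and 8 between strains, beside 3.3%, 9.96%, 10.6%, 18.3% and 14.5% of all genes. The 2 at 1 h were higher, the migration receptors Gpr183 (1.19, SE 0.24; adjusted p = 0.002) and Ccr7 (1.05, SE 0.29; adjusted p = 0.0305). At 3 h 4 were higher and 2 lower: Ccr7 stood at 1.15 and the co-stimulatory receptor Cd40 at 0.90, while Cd180 was at -0.76 and Tcf3 (E2A) at -0.66. At 72 h 5 were lower (H2-Ob, Id3, Cd55, Notch2 and S1pr1, from -1.13 to -0.58) and 0 higher. Against control ODN 8 were lower and 2 higher, and between untreated C57BL/6 and BALB/c 8 were higher in C57BL/6 and 0 lower, with Ly6d at 2.28 (SE 0.23; adjusted p = 3.45e-10).

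Of 20 genes of antibody secretion and the unfolded protein response, 2 passed at 3 h, 4 at 24 h and 5 at 72 h, beside 9.96%, 8.44% and 10.6% of all genes. At 3 h their share was 10.0%, near that of all genes, with 1 higher and 1 lower: Irf4, a transcription factor that plasma cells need, by 0.67 (SE 0.19; adjusted p = 0.0202), and Mzb1, a chaperone of immunoglobulin secretion, by -0.81 (SE 0.24; adjusted p = 0.0225). At 24 h 3 chaperone genes were higher, Pdia6 by 1.49 (SE 0.22; adjusted p = 1.46e-05), Hsp90b1 by 0.89 and Creld2 by 0.93, and Tent5c was lower, at -1.16. At 72 h 3 were higher and 2 lower. Hsp90b1 and Creld2 stayed higher then (0.78 and 0.77), while Cd28, which T cells also carry, was at -1.07. These chaperones serve secretion in many cell types, and which cells of the spleen carried the change was not tested.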

How the data were processed

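The authors deposited a table of log2 ratios, spleen (Cy5) over Universal Mouse Reference RNA (Cy3); per the labels and series text the authors subtracted background, removed values marked bad and spots with both signals under 100, took log2 and applied lowess, with mAdb and BRB ArrayTools. Groups came from array titles. Each of the 50 arrays was centred on its median over probes present on over 70% of arrays; arrays held 27619 to 30590 values. A gene was read from the probe of its symbol with most values, and on a tie, as for Cd79b and Fcer2a, from the first listed. Probes were named through the platform annotation and RefSeq (203 of several genes and 9478 unnamed probes were left out). limma 3.58.1 in R 4.3.3 (lmFit, eBayes) fitted group means over the 34 BALB/c arrays, the 16 C57BL/6 arrays, or all 50 for strain comparisons. p-values were Benjamini-Hochberg adjusted over all genes at 0.05, and the fits were tested on simulated data. The number of arrays limits the precision.

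Members passing in at least 1 comparison are described by array, the others by range; companion and marker lists are given by counts and by up to 4 members of smallest p, or all where 5 or fewer passed. The members and lists were chosen with earlier results of these data known. Alternatives were no centring, equal spread, array weights, mean of probes, other presence filters, array run or replicate number as a block, a pancreas covariate, each array left out and, chosen after seeing the data, every probe tested.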

Additional observations from a re-analysis of the deposited data

Results flagged for a closer look

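Values of the called members were checked for arrays that stand apart from the rest of their group, over 52 groups of 4 to 6 arrays, and 5 stood apart by Dixon's criterion, which chance alone meets in about 5% of groups (about 1 in 20). Prdm1 at 1 h after CpG ODN was at 0.32 on replicate 1, with the nearest other array at 1.14. Cd24a at 24 h was at 3.71 on replicate 2 against 2.92 for the next array, and untreated BALB/c replicate 6 had the highest Cd24a of its group, at 4.75 against 3.97. Cd37 in untreated C57BL/6 control mice was at 2.24 on replicate 1, the next array being at 1.91. Ighd in untreated BALB/c was lowest on replicate 2, at 5.06, the next array being at 5.83.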

How the results depend on the processing

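The number of members called moved with the processing as follows, each setting changing 1 choice. In the settings that give 1 value per gene no called member changed sign, while single probes of Fcrl1 (-0.68 between strains) and Cr2 (-0.10 for control ODN) had the opposite sign to the probe used. With array weights the number called was 1 at 0.5 h, 2 at 1 h, 5 at 3 h, 1 at 9 h, 2 at 24 h, 10 at 72 h, 4 for control ODN, 14 for CpG against control ODN, 3 for CpG in C57BL/6 controls, 1 for TNF-KO against control untreated and 1 after CpG. With arrays scaled to the same spread it was 1 at 1 h, 4 at 3 h, 2 at 9 h, 3 at 24 h, 0 for control ODN, 4 for CpG against control ODN, 1 for CpG in TNF-KO and 3 between strains. With the mean of all probes it was 4 at 3 h, 1 at 9 h, 2 at 24 h, 0 for control ODN and 3 for CpG in TNF-KO. With every probe tested, a setting chosen after seeing the data, it was 4 at 3 h, 0 at 24 h, 0 for control ODN and 1 for CpG in TNF-KO. With the array run as a fixed block it was 1 at 3 h, 0 at 24 h, 3 for CpG in C57BL/6 controls and 1 for TNF-KO against control untreated; as a random block it was 0 for control ODN, 3 for CpG in C57BL/6 controls and 1 for TNF-KO against control untreated. With the pancreas covariate it was 2 at 24 h and 0 for control ODN, and at 24 h it was 2 with no centring and 2 with values required on every array. Within the first array run alone it was 13 at 1 h, where the share of all genes called was not counted. The cause of these moves was not tested.

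With the replicate number as a block, the pairing that the labels do not state, the number was 2 at 1 h, 1 at 3 h, 1 at 9 h, 0 for control ODN, 2 for CpG in C57BL/6 controls, 1 for CpG in TNF-KO and 1 for TNF-KO against control untreated. Arrays of the same number in different groups deviated together only weakly (mean correlation 0.073 in BALB/c and 0.074 in C57BL/6), so the numbers were not taken to pair them. Leaving out each array in turn gave 0 to 0 called at 0.5 h, 1 to 4 at 1 h, 0 to 3 at 3 h, 0 to 1 at 9 h, 0 to 3 at 24 h, 3 to 6 at 72 h, 0 to 5 for control ODN, 4 to 11 for CpG against control ODN, 0 to 1 for CpG in C57BL/6 controls, in TNF-KO and for both TNF-KO against control comparisons, and 4 to 6 between strains. Both differences of responses stayed at 0 in every setting run. The fixed run block could not be fitted for 72 h, control ODN, CpG against control ODN or the strains, where no shared run links the groups; at 9 h and 24 h, which share no run with untreated either, it was fitted only through 3 h arrays.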
